A study of Mus musculus with 11 samples.

Results

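The 10 genes described here are Acod1, which encodes the enzyme that makes itaconate, and 9 genes of the tricarboxylic acid (TCA) cycle or its isocitrate branch: Cs, Idh1, Idh2, Idh3a, Ogdh, Sdha, Sdhb, Fh1 and Mdh2. They were taken by name from a table of 18193 genes, each gene being represented by the probe set with the highest mean over all 11 arrays, and all 10 were measured. Bone marrow of Rag1-/- C57BL/6 mice aged 7 weeks was cultured for 7 days, and cells were sorted by the macrophage surface antigen that Adgre1 encodes. M1 cells (3 arrays) had received interferon-gamma, with lipopolysaccharide (LPS) for the last 24 h. M2a cells (3 arrays) had received IL-4 and IL-13, and M0 cells (5 arrays) no cytokine. All groups lack Rag1, which T and B lymphocytes need to mature. Replicates are numbered in the labels with no word on separate mice or pools, so the spread behind every p-value is that between these arrays and could be technical. Total RNA was hybridized to Affymetrix mouse arrays, and the values are log2 signals as deposited; a log2 difference of 1 is a 2-fold change in signal.

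The TCA cycle oxidizes acetyl groups in the mitochondrial matrix. Citrate synthase forms citrate, which becomes isocitrate through cis-aconitate, and dehydrogenases of isocitrate, 2-oxoglutarate, succinate and malate then pass electrons to carriers. Acod1, named Irg1 in older work, is a mitochondrial enzyme that removes carbon dioxide from cis-aconitate to give itaconate, so it draws on the pool that isocitrate dehydrogenase would use. Mouse macrophages given LPS are known to make itaconate, which inhibits succinate dehydrogenase and acts on bacteria and on stress signalling.

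The groups of arrays also differed in many signals besides the 10 genes, and whether the cytokines caused those differences was not tested. Adgre1 was at 12.37 to 12.49 in M1, 11.51 to 11.85 in M2a and 10.78 to 11.59 in M0, with M2a and M0 overlapping. Over all genes tested against M0, 22.1% were called higher and 17.6% lower in M1, and 18.6% and 13.3% in M2a. Of the 8 macrophage markers, Adgre1 included, 4 were called higher and 1 lower in M1, and 1 higher and 5 lower in M2a. Their summed linear signal was 51835 to 52228 in M1 and 24694 to 26447 in M2a, against 31765 to 42215 in M0. The 12 measured neutrophil-lineage markers had a summed linear signal of 12428 to 13396 in M1 and 597 to 652 in M2a, against 54447 to 107607 in M0. Of the 12, 11 were called lower in M1 and 12 in M2a. Lcn2 and S100a8, which averaged log2 signals of 12.65 and 12.35 in M1, stood far above the others there, while Mpo averaged 3.97 in M1 and 4.76 in M2a. Markers of eosinophils, basophils and mast cells summed to 365 to 366 in M1 and 515 to 549 in M2a, against 5354 to 13832 in M0. Of these 15, 1 was called higher and 12 lower in M1, and 0 and 11 in M2a. Markers of erythroid cells and megakaryocytes summed to 523 to 567 in M1 and 669 to 845 in M2a, against 4727 to 6821 in M0. Of these 8, Pf4, Gp9, Itga2b and Ppbp were called lower in both states. Hba-a1 and Alas2 were called higher in M1, at 4.32 and 4.86 against 4.06 and 4.40 in M0. Stroma and endothelium markers summed to 603 to 657 in M1 and 349 to 384 in M2a, against 1189 to 2205 in M0. Of these 13, 2 were called higher and 3 lower in M1, and 1 and 8 in M2a. Lymphoid markers summed to 226 to 245 in M1 and 247 to 251 in M2a, against 307 to 805 in M0. Of these 7, 2 were called higher and 2 lower in M1, and 1 and 2 in M2a. M0 thus had the highest sum of each of these 5 lists. A linear sum is carried by its strongest markers, and outside the neutrophil list some markers were called higher. The part of the 5 lists in the differences from M0 was not tested. The poly-A control probe sets read 5.46 to 5.67 in M1 and 6.48 to 6.67 in M2a, against 9.39 to 10.50 in M0, and those of 18S RNA 6.15 to 6.30 in M1 and 8.51 to 8.64 in M2a, against 8.96 to 9.54 in M0. No value in the table is 0. Over all genes, replicates had a median SD of 0.082 in M1 and 0.0857 in M2a, against 0.244 in M0. M0 arrays 1 to 3 had, on each of the 45101 probe sets, the same mean as M0 arrays 4 and 5 (to within 8.3e-05). The 5 arrays of M0 are thus not independent of each other, whereas the test treats them so. In bulk samples, fewer cells of a type and less RNA per cell cannot be told apart.

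**Figure D1:**
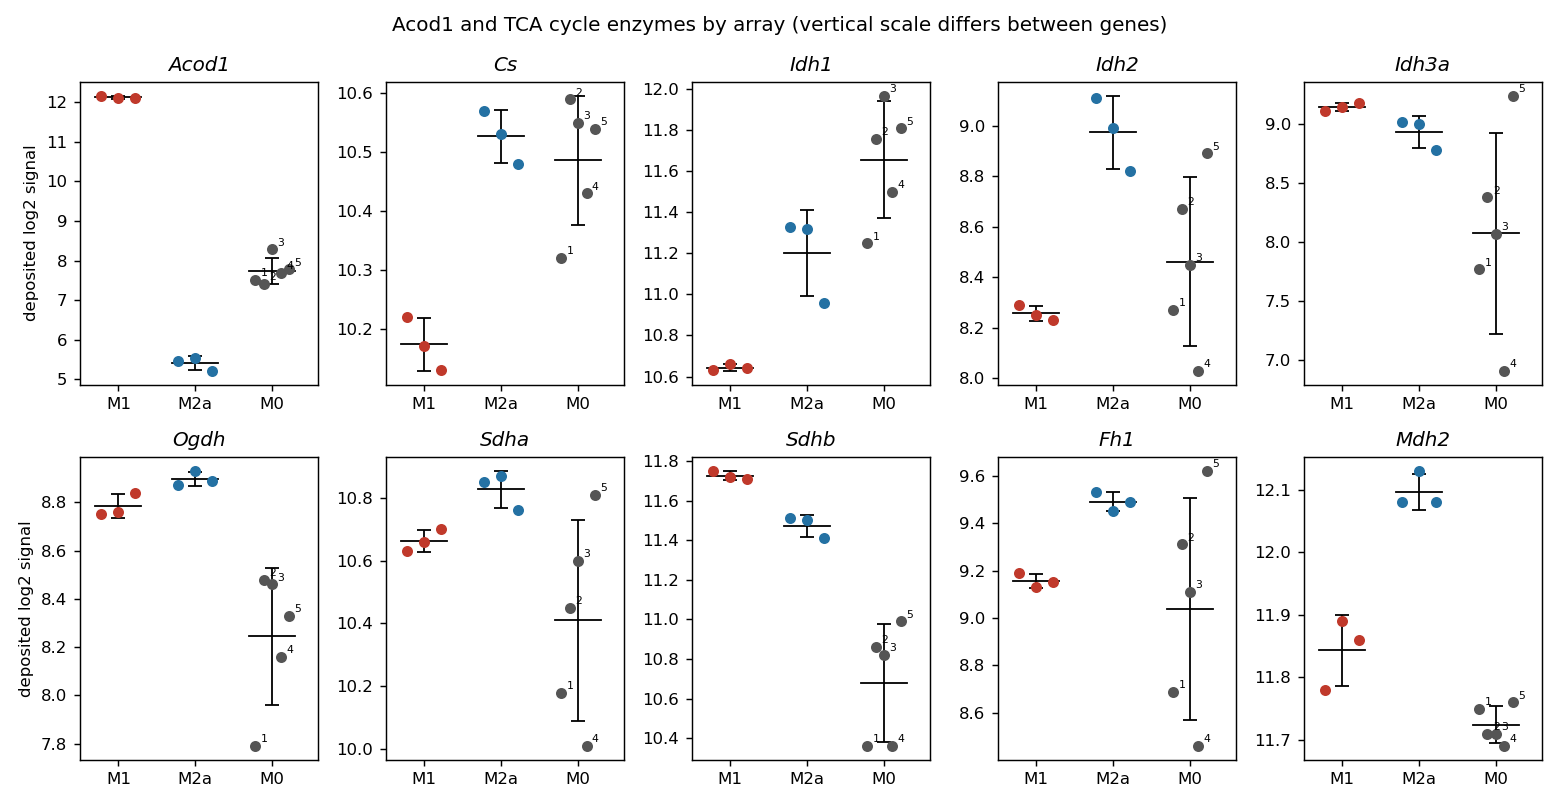
Deposited log2 signal (vertical axes, a separate scale for each gene) of the 10 genes in 3 M1, 3 M2a and 5 M0 arrays; points are arrays, lines and bars are means ± SD, and the digits beside the M0 points are array numbers. Acod1 separates all 3 states, while the other 9 genes span narrower ranges, and array 4 or array 1 is the lowest M0 array for each of those 9.

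Acod1 (chr14:103047012-103056573, GRCm38.p6) had the largest differences of the 10 genes, in opposite directions in the 2 cytokine states. Its log2 signal was 12.16, 12.09 and 12.10 in M1 arrays and 5.47, 5.55 and 5.22 in M2a arrays, against 7.52, 7.42, 8.28, 7.69 and 7.78 in M0 arrays. The 3 groups did not overlap. Acod1 averaged 12.12 ± 0.04 in M1 (SD, n = 3) and 7.74 ± 0.33 in M0 (SD, n = 5), a difference of 4.38 ± 0.17 (SE), which is 20.8-fold, with a limma adjusted p of 5.1e-09. It averaged 5.42 ± 0.17 in M2a (SD, n = 3), lower than M0 by a log2 difference of -2.32 ± 0.17 (SE), a signal ratio of 0.200 (adjusted p = 1.7e-06). Set directly against each other, M1 exceeded M2a by 6.70 ± 0.19 (SE), or 104-fold (adjusted p = 3.5e-10). Its single probe set passed the test in the same direction in each of the 25 alternatives run for each comparison. The M2a signal lay close to the median of all probe sets on those arrays, 5.23, and no detection calls are in the table, so the size of the fall in M2a may be limited by the bottom of the scale.

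The neutrophil-lineage markers fell in M2a, as Acod1 did, but all of them except Lcn2 were also called lower in M1, where Acod1 rose. Their part in the Acod1 differences was not tested. Across the 5 M0 arrays every one of these markers but Cxcr2 was highest in array 1, while the lowest array differed between markers. Mpo, the myeloperoxidase of neutrophil precursors, read 13.10, 11.40, 10.23, 12.07 and 11.08. Cxcr2, a chemokine receptor of mature neutrophils, read 7.43, 6.90, 7.90, 7.21 and 7.60. Acod1 was highest in array 3, where Mpo was lowest and Cxcr2 highest. It was lowest in array 2, where Cxcr2 and several other markers were also lowest. In array 1 Acod1 read 7.52, below all M0 arrays but array 2.

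The genes whose centred log2 profile was closest to that of Acod1 were inflammatory and antigen-presentation genes. Closeness was measured as the root mean square difference over the 11 arrays, which is a description of shared group differences and carries no test. Il1b, the interleukin-1 beta gene, was the nearest, at a difference of 0.346: its signal averaged 11.69 ± 0.11 in M1 and 5.78 ± 0.38 in M2a, against 7.54 ± 0.18 in M0 (SD, n = 3, 3 and 5). It was followed by H2-Eb1 (0.429) and H2-Aa (0.531, the fourth), which encode MHC class II chains, by the interferon-induced gene Ifi213 (0.471, the third) and by Mefv (0.563, the fifth), which encodes the inflammasome sensor pyrin.

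The promoters of the 10 genes part Acod1 from the enzymes of the cycle by base composition, a feature that the choice of genes did not use. RefSeq promoter sequence (GRCm38.p6) was matched for 9 of the 10, all but Idh3a, and the 250 bases before the start were read. The promoter of Acod1 had 44.4% G and C and 2 CG dinucleotides. Those of the 8 cycle genes had 52.8% to 67.2% and 9 to 23, against medians of 52.4% and 6 over 32841 mouse promoters of the same length. The following 4 sequences are shown because Acod1, Idh1 and Sdhb had the largest differences with separated arrays in M1, and because Sdha carries a repeated motif.
Acod1 (chr14:103046762-103047011, plus strand): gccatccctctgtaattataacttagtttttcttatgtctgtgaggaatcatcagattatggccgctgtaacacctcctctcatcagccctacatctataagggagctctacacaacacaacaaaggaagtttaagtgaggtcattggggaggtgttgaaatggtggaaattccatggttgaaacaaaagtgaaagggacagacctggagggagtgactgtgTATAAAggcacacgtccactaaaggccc
Idh1 (chr1:65186480-65186729, minus strand): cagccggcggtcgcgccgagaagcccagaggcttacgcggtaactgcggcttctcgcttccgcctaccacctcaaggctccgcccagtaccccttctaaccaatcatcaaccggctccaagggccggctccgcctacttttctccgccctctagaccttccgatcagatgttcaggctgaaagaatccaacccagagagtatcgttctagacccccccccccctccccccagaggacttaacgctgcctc
Sdhb (chr4:140961021-140961270, plus strand): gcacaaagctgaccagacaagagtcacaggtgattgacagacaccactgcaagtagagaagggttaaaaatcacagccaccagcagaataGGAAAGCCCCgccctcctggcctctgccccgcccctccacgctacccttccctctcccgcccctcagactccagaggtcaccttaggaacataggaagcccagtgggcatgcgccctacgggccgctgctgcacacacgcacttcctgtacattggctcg
Sdha (chr13:74350241-74350490, minus strand): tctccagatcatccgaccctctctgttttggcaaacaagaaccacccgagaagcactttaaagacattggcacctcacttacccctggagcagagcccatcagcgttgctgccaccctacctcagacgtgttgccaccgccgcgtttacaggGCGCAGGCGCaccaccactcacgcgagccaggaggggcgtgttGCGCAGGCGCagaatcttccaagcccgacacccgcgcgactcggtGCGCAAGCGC
Capitals mark matches to any of 8 motifs searched on both strands. In Acod1 they mark a TATA motif (TATAAA) that starts 28 bases before the start, a match that 12.4% of all promoters hold somewhere in their 250 bases. In Sdha they mark 3 matches to the NRF1 motif, 98, 55 and 10 bases before the start; 3.74% of promoters hold at least 1. In Sdhb they mark a match to the kappaB motif, 160 bases before the start, held by 7.25% of promoters. No motif searched was found in Idh1. In Acod1, these 250 bases held no match to the interferon-gamma activated site (TTCNNNGAA, held by 7.02% of promoters), the interferon-stimulated response element (2.98%), the STAT6 motif (5.85%) or kappaB. The other motifs, for ERR (TCAAGGTCA, 0.387%) and ETS factors (ACCGGAAG, 1.72%), matched none of the 9 promoters. Of the promoters not shown, that of Idh2, 3258 bases from the annotated start of the gene, held a kappaB match and that of Fh1 a STAT6 match. The STAT6 motif is the interferon-gamma activated site with its ends a base further apart.

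Citrate synthase (Cs, chr10:128337727-128362482), which brings acetyl groups into the cycle, was slightly lower in M1, but its probe sets disagreed. The chosen probe set read 10.22, 10.17 and 10.13 in M1 and 10.57, 10.53 and 10.48 in M2a, against 10.32, 10.59, 10.55, 10.43 and 10.54 in M0. M1 lay below all other arrays, by -0.31 ± 0.09 (SE) from M0 (adjusted p = 0.014). Another Cs probe set was higher in M1 than in M0 by 0.49 ± 0.16 (adjusted p = 0.027) and the last differed by 0.01 ± 0.12 (adjusted p = 0.96). With the mean of all Cs probe sets the M1 difference was 0.06 and did not pass, so the array gives no settled direction for this gene. In M2a, Cs differed from M0 by 0.04, with a 95% interval of -0.15 to 0.23. M1 was lower than M2a by -0.35 ± 0.10 (adjusted p = 0.017), lost in 6 of 25 alternatives, among them without M1 array 2 or 3 or M2a array 1 or 2. The call against M0 was also lost without M1 array 2 (adjusted p = 0.051) or 3 (adjusted p = 0.059).

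The isocitrate dehydrogenases behaved differently by enzyme. Idh1 (chr1:65158616-65186479), the NADP-dependent enzyme of the cytosol and peroxisomes, had the largest fall in M1 of the 9 cycle genes chosen. Its signal was 10.63, 10.66 and 10.64 in M1 and 11.33, 11.32 and 10.96 in M2a, against 11.25, 11.76, 11.97, 11.50 and 11.81 in M0. All M1 arrays lay below all M2a and M0 arrays, whereas M2a overlapped M0. The difference in M1 was -1.01 ± 0.16 (SE), a signal ratio of 0.496 (adjusted p = 0.00033), and it passed in all 24 alternatives that could be run, with -1.63 to -0.86. The other Idh1 probe set fell by 0.71 on the log2 scale in M1 (adjusted p = 0.032). Both have the suffix _s_at, which marks probe sets that can bind several transcripts, so Idh1 had no value without such probe sets. In M2a the difference from M0 was -0.45 ± 0.16 (adjusted p = 0.046), a call lost in 14 of 24 alternatives, among them leaving out any single M1 or M2a array or M0 array 2, 3 or 5. M1 was lower than M2a by -0.56 ± 0.17 (adjusted p = 0.031; lost without any single M1 array or M2a array 1 or 2), but by -0.05 ± 0.26 on the other probe set (adjusted p = 0.91).

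Idh2 (chr7:80094845-80118608), the NADP-dependent enzyme of mitochondria, parted M1 from M2a. It read 8.29, 8.25 and 8.23 in M1 and 9.11, 8.99 and 8.82 in M2a, against 8.27, 8.67, 8.45, 8.03 and 8.89 in M0. The M0 arrays covered the M1 values and reached into the M2a values. M1 was lower than M2a by a log2 difference of -0.72 ± 0.19 (adjusted p = 0.013), which missed the threshold without M2a array 1 (adjusted p = 0.056). Against M0, M2a was higher by 0.51 ± 0.17 (adjusted p = 0.035), a call lost in 13 of 25 alternatives (among them without any single M1 or M2a array or M0 array 1 or 3) and turned to -0.19 once the hybridization controls entered as a covariate, and M1 differed by -0.21, with an interval of -0.57 to 0.16 (adjusted p = 0.36). The second Idh2 probe set was lower in M1 than in M0 by -0.48 ± 0.08 (adjusted p = 0.00088). In M2a it differed from M0 by -0.11 ± 0.08 (adjusted p = 0.34), all its M2a arrays lying below M0, so the rise of the chosen probe set in M2a was not seen there. This second probe set averaged only 5.36 in M1, 5.73 in M2a and 5.84 in M0. The array medians were 5.14 to 5.34, so its differences may be limited by the bottom of the scale.

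Idh3a (chr9:54586511-54604662) encodes the catalytic subunit of the NAD-dependent enzyme of the cycle itself, and its M0 arrays were the most scattered of the 10 genes. It read 9.11, 9.14 and 9.18 in M1 and 9.02, 9.0 and 8.78 in M2a, against 7.77, 8.38, 8.07, 6.91 and 9.24 in M0. The single M0 array 5 lay above every cytokine-treated array and array 4 far below. The rise in M1, 1.07 ± 0.38 (adjusted p = 0.041), was lost in 11 of 25 alternatives, among them leaving out any single M1 or M2a array or M0 array 1 or 3. As a covariate, the actin controls gave -0.26 and the hybridization controls -0.87. M2a differed by 0.86 ± 0.38 (adjusted p = 0.11). It passed as higher in 6 of 25 alternatives, among them the mean of all probe sets (0.62, adjusted p = 0.0036). With the hybridization controls as a covariate it was -0.84. A sign of RNA quality moved with the Idh3a signal, the log2 signal of the actin control probe sets at the 5′ end less that at the 3′ end. This difference was lowest in M0 array 4 (-1.27) and highest in M0 array 5 (0.05), the arrays with the lowest and the highest Idh3a signal. It was 0.13 to 0.18 in the M1 arrays and -0.63 to -0.53 in the M2a arrays. The M1 arrays overlapped neither M0 nor M2a in it. For every gene, a difference of M1 adjusted for the actin controls thus extrapolates beyond the range that either side covers. The actin difference was high in M1, where the chosen Idh3a probe set was also high, but low in M2a. The other Idh3a probe sets differed by -0.03 to 0.27 in M1 and none of the 3 passed, while in M2a 2 of them rose, by 0.89 (adjusted p = 0.0021) and 0.72 (adjusted p = 0.0024). Those 2 were lower in M1 than in M2a, by -0.61 (adjusted p = 0.030) and -0.74 (adjusted p = 0.0038). All 3 were weak, with group means of 4.83 to 6.79 beside array medians of 5.14 to 5.34. The sizes of their differences may be limited by the bottom of the scale. The chosen probe set went the other way, higher in M1 by 0.21 ± 0.42 (adjusted p = 0.75), with all M1 arrays above all M2a arrays. It passed as higher in the fit of only those 2 groups (adjusted p = 0.047), and turned round in 3 of 25 alternatives. The partner subunits Idh3b and Idh3g moved apart in M1: Idh3b rose by 0.77 (adjusted p = 0.0061) and Idh3g fell by 0.37 (adjusted p = 0.012). In M2a both rose, by 0.73 (adjusted p = 0.010) and 0.33 (adjusted p = 0.028).

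Ogdh (chr11:6291597-6359094), the first component of the 2-oxoglutarate dehydrogenase complex, was higher in both cytokine states. Its signal was 8.75, 8.76 and 8.84 in M1 and 8.87, 8.93 and 8.89 in M2a, against 7.79, 8.48, 8.46, 8.16 and 8.33 in M0. All cytokine-treated arrays lay above all M0 arrays. M1 exceeded M0 by 0.54 ± 0.14 (adjusted p = 0.011) and M2a by 0.65 ± 0.14 (adjusted p = 0.0044), while M1 and M2a differed by -0.12, with an interval of -0.46 to 0.23. With the hybridization controls as a covariate the M1 difference was -0.10 and that in M2a 0.09, and neither passed. The M1 call was also lost with the actin controls as a covariate (0.43, adjusted p = 0.12) and with the mean of both probe sets (0.24, adjusted p = 0.12). The second Ogdh probe set differed by -0.06 in M1 and 0.30 in M2a and passed in neither. Its signal was weaker, averaging 6.46 in M1, 6.81 in M2a and 6.51 in M0.

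Succinate dehydrogenase, which links the cycle to the respiratory chain, changed in its iron-sulphur subunit Sdhb (chr4:140961271-140979198), which was higher in both cytokine states. Sdhb read 11.75, 11.72 and 11.71 in M1 and 11.51, 11.50 and 11.41 in M2a, against 10.36, 10.86, 10.82, 10.36 and 10.99 in M0. Both cytokine states lay wholly above M0. The rise was 1.05 ± 0.15 in M1, or 2.07-fold (adjusted p = 0.00017), and 0.79 ± 0.15 in M2a, or 1.73-fold (adjusted p = 0.0016). With the hybridization controls as a covariate these were 0.25 and 0.10 and neither passed. Those controls, which are added to every sample, read 9.35 to 9.56 in M1 and 9.59 to 9.78 in M2a, against 10.44 to 11.56 in M0, and were highest in the M0 arrays with the lowest Sdhb signal, 1 and 4. They did not overlap between M0 and the cytokine states. For every gene, a difference from M0 adjusted for them thus extrapolates beyond the range that either side covers.

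The flavoprotein subunit Sdha (chr13:74322255-74350240), the catalytic subunit of the same enzyme, read 10.63, 10.66 and 10.70 in M1 and 10.85, 10.87 and 10.76 in M2a, against 10.18, 10.45, 10.60, 10.01 and 10.81 in M0. The M0 arrays overlapped both. It differed from M0 by 0.25 in M1, with an interval of -0.09 to 0.60, and by 0.42 in M2a, with 0.07 to 0.76 (adjusted p = 0.22 and 0.064). The M2a difference passed as higher in 7 of 25 alternatives, among them the mean of all probe sets (0.28, adjusted p = 0.036). It turned to -0.26 with the hybridization controls as a covariate. The M1 difference passed as higher in 1, without M0 array 5 (0.35, adjusted p = 0.047), and turned round in 2. The membrane anchor subunits were not among the chosen genes. Sdhc rose by 1.07 ± 0.21 in M1 (adjusted p = 0.0016) and 1.28 ± 0.21 in M2a (adjusted p = 0.00062). Sdhd rose by 1.29 ± 0.23 in M1 (adjusted p = 0.00085) and differed by 0.32 ± 0.23 in M2a (adjusted p = 0.32). M1 exceeded M2a in Sdhd by 0.98 ± 0.25 (adjusted p = 0.013). Sdhb (0.25, adjusted p = 0.29) and Sdha (-0.16, adjusted p = 0.53) did not pass in that comparison, but passed in 3 and 4 of 25 alternatives. Sdhaf2, an assembly factor that helps attach the flavin to Sdha, rose by 1.24 ± 0.22 in M1 (adjusted p = 0.0011) and differed by 0.51 ± 0.22 in M2a (adjusted p = 0.11).

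Fh1 (chr1:175601378-175625635), fumarase, did not pass against M0 in either state in the fit of all 11 arrays. It read 9.19, 9.13 and 9.15 in M1 and 9.53, 9.45 and 9.49 in M2a, against 8.69, 9.31, 9.11, 8.46 and 9.62 in M0. The M0 arrays spanned both states. The difference was 0.12 in M1, with an interval of -0.35 to 0.59 (adjusted p = 0.68), and 0.45 in M2a, with -0.02 to 0.92 (adjusted p = 0.13). It depended on the setting: in M2a it passed as higher in 6 of 25 alternatives (0.60 without M0 array 5, adjusted p = 0.019) and as lower with hybridization controls as a covariate (-0.62, adjusted p = 0.018). In M1 it passed as lower with those controls (-1.10, adjusted p = 0.0017) and with the actin controls (-0.56, adjusted p = 0.021). M1 lay below M2a on every array, by -0.33 ± 0.24 (adjusted p = 0.34), a difference that passed in 6 of 25 alternatives, among them the fit of only those 2 groups (adjusted p = 0.0016), in which the scatter of M0 plays no part.

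Mdh2 (chr5:135778649-135790386), the mitochondrial malate dehydrogenase that closes the cycle, was the tightest of the 10 genes in M0. It read 11.78, 11.89 and 11.86 in M1 and 12.08, 12.13 and 12.08 in M2a, against 11.75, 11.71, 11.71, 11.69 and 11.76 in M0. M2a lay above all other arrays. The rise in M2a was 0.38 ± 0.07 (adjusted p = 0.0023) and passed in all 25 alternatives. In M1 the chosen probe set differed by 0.13 ± 0.07 (adjusted p = 0.20), although its arrays lay just above M0, and the second probe set rose by 0.71 ± 0.11 in M1 (adjusted p = 0.00050) and 0.57 ± 0.11 in M2a (adjusted p = 0.0027). M1 was lower than M2a by -0.25 ± 0.08 (adjusted p = 0.040), which was lost in 12 of 25 alternatives, among them leaving out any single M1 or M2a array or M0 array 2 or 3. The direction depended on the probe set: on the second, M1 exceeded M2a by 0.13 ± 0.13 (adjusted p = 0.47), with 11.54, 11.47 and 11.44 in M1 and 11.34, 11.38 and 11.33 in M2a. The plot of every probe set shows where probe sets of a gene part.

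**Figure D2:**
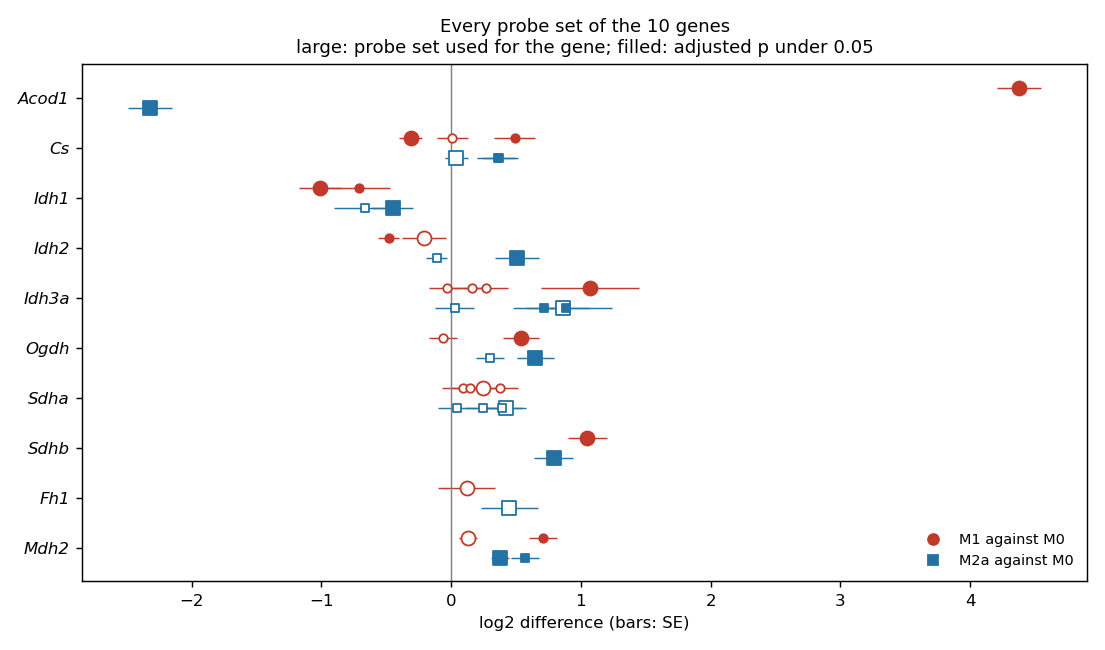
Log2 difference from M0 (horizontal axis) of every probe set of the 10 genes, with SE bars, in M1 (circles) and M2a (squares); the large symbol is the probe set used for the gene and filled symbols passed an adjusted p of 0.05. Cs has probe sets on both sides of 0 in M1 (-0.31 and 0.49), and of the Idh3a probe sets only the chosen one passed in M1, at 1.07.

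Counted together, 4 of the 10 genes were called higher in M1 than in M0 (Acod1, Idh3a, Ogdh and Sdhb) and 2 lower (Cs and Idh1). Over all genes tested, 22.1% were called higher and 17.6% lower (39.7% in either direction); with 10 genes, these counts are not read as a property of the group. In M2a against M0, 4 were called higher (Idh2, Ogdh, Sdhb and Mdh2) and 2 lower (Acod1 and Idh1), against backgrounds of 18.6% and 13.3% (31.9% in either direction). In M1 against M2a, 1 was called higher (Acod1) and 4 lower (Cs, Idh1, Idh2 and Mdh2), against 13.7% and 15.6% (29.4% in either direction). At least 2-fold, without a test, 3 genes were higher in M1 than in M0 and 1 lower (6.37% and 6.43% of all genes), 0 were higher in M2a than in M0 and 1 lower (4.48% and 4.97%), and 1 was higher in M1 than in M2a and 0 lower (5.67% and 5.54%). The median over the 9 cycle genes was 0.13 in M1 against M0, 0.45 in M2a against M0 and -0.25 in M1 against M2a, where the medians of all genes were 0.06, 0.07 and -0.02. The comparisons with M0 share the M0 arrays. The median of the 9 turned to -0.58 in M1 and -0.20 in M2a when the hybridization controls were a covariate, and to -0.26 in M1 when the actin difference was. On single arrays, all 10 genes separated M1 from M2a without overlap, 3 higher and 7 lower in M1, where 30.7% of all genes did so as higher and 33.9% as lower (64.6% in all). In M1 against M0, 4 genes lay wholly higher and 2 wholly lower (22.7% and 17.4% of all genes, 40.1% in all). In M2a against M0, 3 lay wholly higher and 1 wholly lower (21.3% and 13.9%, 35.1% in all).

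**Figure D3:**
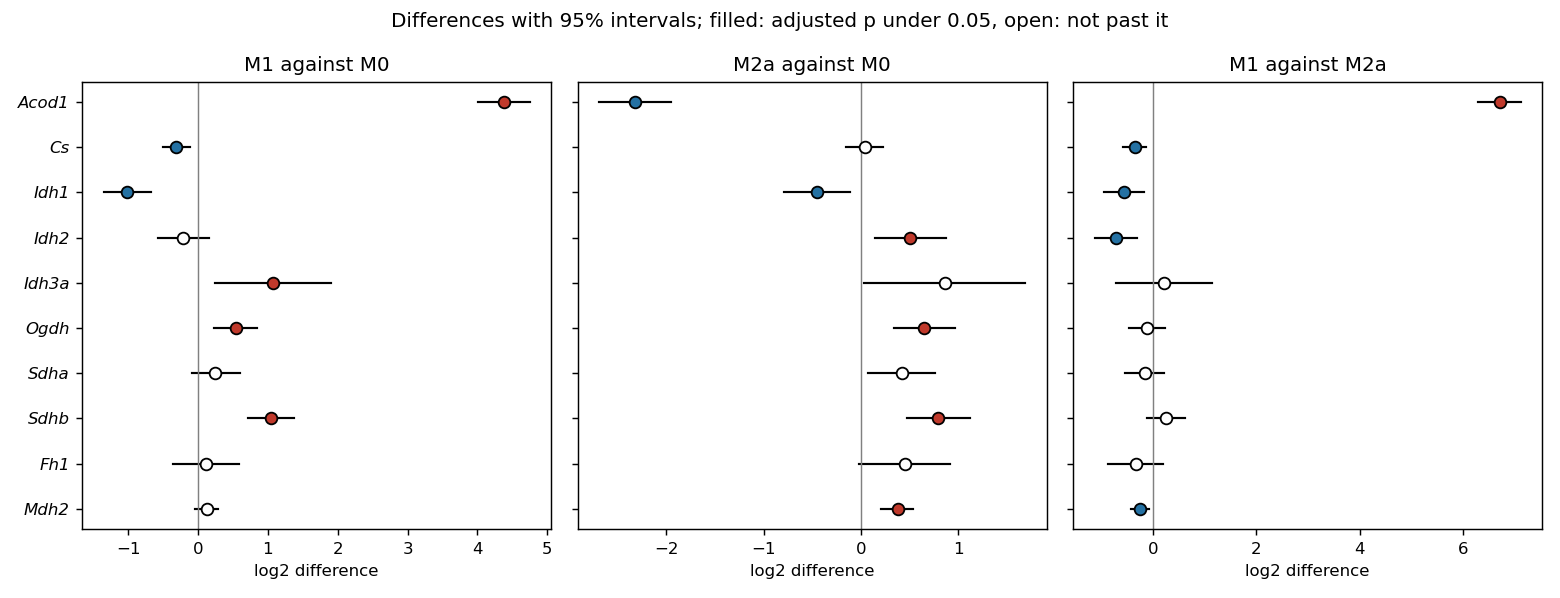
Log2 differences (horizontal axes, points) with 95% intervals (lines) for the 10 genes in M1 against M0, M2a against M0 and M1 against M2a; filled points passed an adjusted p of 0.05, red for higher and blue for lower, and open points did not. Acod1 stands at 4.38, -2.32 and 6.70, while the largest difference of a cycle gene is 1.07.

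The M0 arrays kept a common order over many of the cycle genes. Array 4 was the lowest M0 array for 5 of the 9 cycle genes and array 1 for the other 4, and array 5 was the highest for 6. Their median deviations from the M0 mean over the 9 genes were -0.31, -0.30 and 0.31. Without M0 arrays 1 and 4, a setting chosen after seeing the data, the differences of Idh3a (0.58, adjusted p = 0.052) in M1 and Idh2 (0.31, adjusted p = 0.052) in M2a no longer passed, whereas Idh2 passed as lower in M1 (-0.41, adjusted p = 0.012). In M1 against M2a, Sdhb (0.25, adjusted p = 0.021) and Fh1 (-0.33, adjusted p = 0.035) then passed too.

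Among further subunits of the cycle, as over all genes, more were called higher than lower in both states. Of 11 measured genes, 4 rose and 1 fell in M1 (median 0.65), and 6 rose and none fell in M2a (median 0.52). Over all genes, 22.1% were called higher and 17.6% lower in M1, and 18.6% and 13.3% in M2a, with medians of 0.06 and 0.07. With 11 genes, these counts are not read as a property of the group. Besides Sdhc, Sdhd, Idh3b and Idh3g, this group holds aconitase 1, the other components of the 2-oxoglutarate dehydrogenase complex, succinyl-CoA synthetase and the cytosolic malate dehydrogenase. The alternatives were run for the 10 genes and not for this and the next 3 groups.

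Genes of pyruvate entry into mitochondria included changes of over 2-fold. Of 12 measured genes, 6 rose and none fell in M1 (median 0.37), and 5 rose and 2 fell in M2a (median 0.31), beside 22.1% higher and 17.6% lower in M1 and 18.6% and 13.3% in M2a over all genes. Dlat, the acetyltransferase core of pyruvate dehydrogenase, rose by 1.60 ± 0.31 in M1 (adjusted p = 0.0015), and Pcx, pyruvate carboxylase, rose by 1.01 ± 0.14 (adjusted p = 0.00013). Pdk3, a kinase that switches pyruvate dehydrogenase off, rose by 1.06 ± 0.17 in M1 (adjusted p = 0.00055) and fell by 0.63 in M2a (adjusted p = 0.017). The phosphatase that reverses such kinases, Pdp1, rose by 1.74 ± 0.40 in M2a (adjusted p = 0.0062), where Pdk4, another of the kinases, fell by 1.73 (adjusted p = 0.00026). Pdk4 averaged 2.43 in M2a and 4.15 in M0, and Pcx 5.92 in M1 and 4.91 in M0. The array medians were 5.14 to 5.34, so both differences involve levels below them and their sizes may be limited by the bottom of the scale.

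The genes of metabolite exchange and refilling of the cycle included opposite changes in the 2 states. Of 13 measured, 5 rose and 4 fell in M1 (median 0.30), and 6 rose and none fell in M2a (median 0.14), where 39.7% and 31.9% of all genes were called in either direction. In M1 against M2a, 5 were higher and 6 lower, beside 29.4% of all genes called, and the arrays did not overlap for 13 of 13, beside 64.6%. Slc25a1, the mitochondrial citrate carrier, rose by 1.14 ± 0.18 in M1 (adjusted p = 0.00036), Slc25a10, the dicarboxylate carrier, by 1.12 ± 0.14 (adjusted p = 7.1e-05) and Slc25a12, an aspartate-glutamate carrier, by 1.28 ± 0.24 (adjusted p = 0.0013). Pck2, the mitochondrial phosphoenolpyruvate carboxykinase, read 6.55, 6.59 and 6.75 in M1 and 9.49, 9.33 and 9.63 in M2a, against 8.59, 8.74, 8.40, 8.63 and 8.52 in M0. Its 3 groups did not overlap, and it fell by 1.95 in M1 (adjusted p = 7.3e-08) and rose by 0.90 in M2a (adjusted p = 5.5e-05). Gpt2, the mitochondrial alanine transaminase, rose by 2.20 ± 0.13 in M2a (adjusted p = 3.8e-07) and differed by 0.02 in M1 (interval -0.28 to 0.31). Also in M2a, Slc25a13, the other aspartate-glutamate carrier, rose by 1.44 (adjusted p = 0.00016; it fell by 0.79 in M1, adjusted p = 0.0070) and Got1, the cytosolic aspartate transaminase, by 1.03 (adjusted p = 0.033).

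In the last group, of 6 measured genes of succinate dehydrogenase assembly, itaconate breakdown and hydroxyglutarate clearance, 2 rose and 1 fell in M1, and 1 rose and 1 fell in M2a, counts near the shares of all genes (22.1% and 17.6% in M1, 18.6% and 13.3% in M2a). Clybl, a mitochondrial citramalyl-CoA lyase that acts in the breakdown of itaconate, read 5.57, 5.61 and 5.73 in M1 and 6.63, 6.46 and 6.64 in M2a, against 3.93, 5.39, 5.08, 4.44 and 5.16 in M0. All M2a arrays were above all M1 arrays, and these above all M0 arrays. The rise was 0.83 ± 0.27 in M1 (adjusted p = 0.030) and 1.77 ± 0.27 in M2a (adjusted p = 0.00046), and M1 lay below M2a by -0.94 ± 0.31 (adjusted p = 0.038). The M0 values lie mostly below the array medians, so the sizes of these rises may be limited by the bottom of the scale. The highest Clybl signal was thus in the state with the lowest Acod1 signal, but M1, with the highest Acod1 signal, also lay above M0 in Clybl. D2hgdh, which clears D-2-hydroxyglutarate, fell by 1.15 in M1 (adjusted p = 0.00081) and by 0.75 in M2a (adjusted p = 0.014).

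**Figure D4:**
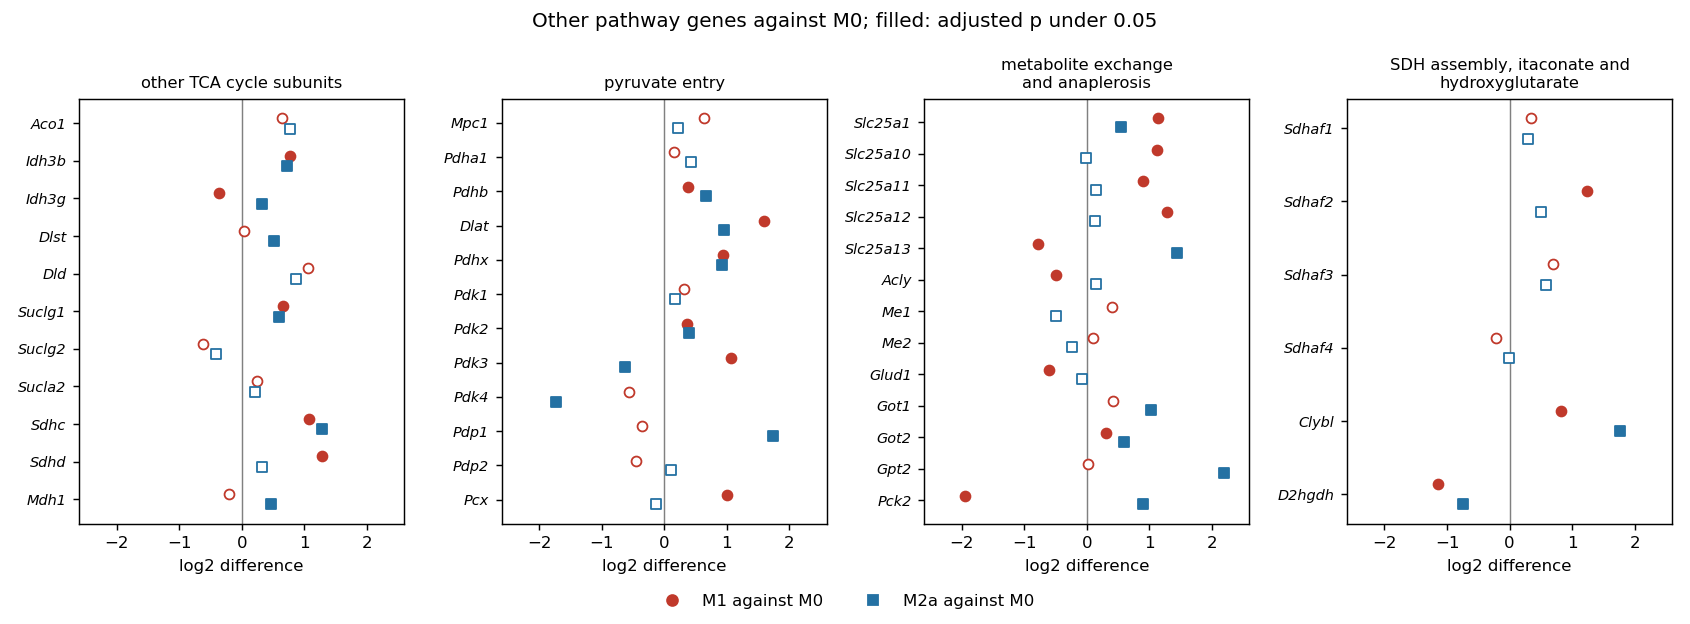
Log2 difference from M0 (horizontal axes) of the measured genes of 4 further pathway groups in M1 (red circles) and M2a (blue squares), filled where the adjusted p was under 0.05. Pck2 and Slc25a13 lie on opposite sides of 0 in the 2 states, and Gpt2, Pdp1 and Clybl have the largest rises in M2a, at 2.20, 1.74 and 1.77.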

How the data were processed

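The authors deposited log2 values of 45101 probe sets on 11 arrays; Partek is named, without a version, per the submitters' processing notes, and the sources used here do not state how background, probe summary or normalization were handled. Gene names came from a platform annotation brought up to date through Entrez identifiers: 34945 probe sets had 1 symbol (34741 matched), 932 had several and were left out, 9211 are not in that table, and 64 are controls. Each of 18193 genes kept its probe set with the highest mean; no filter was used and no column was left out.

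Groups were compared with limma 3.58.1 (R 4.3.3), by eBayes after lmFit with group means over all 11 arrays and 8 residual degrees of freedom, with Benjamini-Hochberg adjustment over all genes and a threshold of 0.05; ± after a difference is its SE. Other probe sets were fitted over the 34945. The test was checked on simulated data with independent arrays and an equal spread in all groups. M0 differs in both respects, so the check does not cover that. The 10 genes, the gene lists and the alternatives were chosen with earlier results of these data known. All 10 genes were named; of the other lists, called genes changed at least 2-fold against M0, up to 4 per list and comparison, and always the 4 measured partners Sdhc, Sdhd, Idh3b and Idh3g, and for Acod1 its 5 nearest profiles. Other normalizations, probe set rules, filters, variance models, control-probe covariates, subsets of arrays and a replicate block were tried. The number of arrays limits the precision.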

Additional observations from a re-analysis of the deposited data

How the results depend on the processing

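Each of the 30 differences was recomputed under 25 alternatives (24 for Idh1): of 747 values, 609 kept direction and call, 73 kept the direction and lost the call, 41 gained a call and 24 turned round. In some settings the difference itself could not change, so its direction was fixed in advance and only the call could move. These were the other variance model, the filter on gene level and the fit of only the 2 groups. They also included the subsets of M0 arrays with a shared mean, the replicate block and leaving out an array of the group not compared. The cause of a change was not tested. In M1 against M0 (4 higher, 2 lower, 7217 genes called), the number of the 10 genes called lower was 1 with each array centred on its median, without _x_at and _s_at probe sets, with M0 arrays 4 and 5 only and by the 2-fold rule, and it was 4 with the hybridization or the actin controls as a covariate, where 1 and 2 were called higher. All genes called were 4626 among genes at or above the median gene, 4758 with M0 arrays 4 and 5 only and 2327 by the 2-fold rule. Leaving out each array in turn gave 3 to 5 higher, 1 to 2 lower and 5391 to 8457 genes. In M2a against M0 (4 higher, 2 lower, 5804 genes called), 1 was lower with centred arrays, without _x_at and _s_at probe sets, with only the 2 groups compared, with M0 arrays 1 to 3 only, with M0 arrays 4 and 5 only and by the 2-fold rule. Higher were 1 with the hybridization controls, 7 with the actin controls, array weights or M0 arrays 1 to 3 only, and 0 by the 2-fold rule. All genes called were 3801 with M0 arrays 4 and 5 only and 1720 by the 2-fold rule. Leaving out an array gave 3 to 7 higher (7 without M0 array 5), 1 to 2 lower and 4161 to 6829 genes. In M1 against M2a (1 higher, 4 lower, 5341 genes called), 1 was lower with centred arrays or the mean of probe sets, 7 with the actin controls and 0 by the 2-fold rule. Higher were 2 with array weights or without M0 arrays 1 and 4 and 3 with only the 2 groups. All genes called were 8103 with the hybridization controls, 11342 with array weights, 10357 with only the 2 groups, 8653 without M0 arrays 1 and 4 and 2039 by the 2-fold rule. Leaving out an array gave 0 to 4 lower (0 without M2a array 1), 1 higher throughout and 3927 to 6192 genes.

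The values that turned round in M1 against M0 were 0.06 for Cs with the mean of probe sets, -0.87 for Idh3a, -0.10 for Ogdh, -0.53 for Sdha and -1.10 for Fh1 with the hybridization controls, and -0.26 for Idh3a, -0.20 for Sdha and -0.56 for Fh1 with the actin controls. Fh1 was also -0.10 after quantile normalization, -0.03 with array weights, -0.02 without M0 array 4 (0.27 without M0 array 5) and -0.19 without M0 arrays 1 and 4. In M2a against M0, Cs was -0.03 after quantile normalization, -0.20 with the hybridization controls, -0.01 with array weights and -0.03 without M0 arrays 1 and 4; with the hybridization controls Idh2 was -0.19, Idh3a -0.84, Sdha -0.26 and Fh1 -0.62. In M1 against M2a, Idh3a was -0.04 with the hybridization controls, -1.05 with the actin controls and -0.25 with the mean of probe sets, and Sdhb was -0.09 with the actin controls.

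Replicate numbers were not shown to pair the arrays: same-numbered arrays of different groups had correlations of their deviations of -0.04 to 0.25, and 4 of 9 array checks were best with their own number. With arrays 1 to 3 of each group and a replicate block, 7 of the 10 genes were called higher and 1 lower in M2a against M0.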
